A study of Mus musculus with 9 samples.

Results

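The megakaryocyte surface adhesion receptors described here are 10 genes, Itga2b, Itgb3, Gp1ba, Gp1bb, Gp9, Gp5, Gp6, Itga2, Clec1b and Cd9. They were taken by name, as known genes for receptors and receptor-associated proteins with which megakaryocytes and platelets bind plasma proteins, matrix and other cells. They are 10 of 37325 gene names on the array and carry 14 of its 56605 probes, and all 10 were among the 29410 genes that passed a filter on dim probes and were tested. Gene expression was measured on 9 Agilent 1-colour arrays in mature megakaryocytes (mMKs) from the bone marrow of male mice. The 3 arrays of the Ctrl group are from mice that were not irradiated (sham irradiation, per the methods), the 3 arrays at 1 dpi from mice 1 day after a single total body dose of 5 Gy of gamma rays (IR), and the 3 arrays at 3 dpi from mice 3 days after the same dose. The labels give no strain, age or altered gene for these mice, and the methods name wild-type C57BL/6 mice for the IR experiments. Per the design text, the replicates are independent experiments with other donor animals each time. The methods describe the mMKs as marrow cells enriched by positive selection, first for CD41 and then for CD42d. Itga2b encodes CD41 and Gp5 encodes CD42d, so the cells of every group were chosen by the proteins of 2 of the 10 genes. In RNA from such a preparation, fewer cells of a type and less RNA per cell cannot be told apart.

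These proteins have different roles in the adhesion and activation of platelets. The products of Gp1ba, Gp1bb, Gp9 and Gp5 form a complex that catches von Willebrand factor under flow, the products of Gp6 and Itga2 bind collagen, Clec1b encodes the receptor for podoplanin, and Cd9 encodes a tetraspanin of the platelet membrane. Signals from receptors such as the product of Gp6 switch the integrin encoded by Itga2b and Itgb3 to another form. That form binds fibrinogen and joins platelets to each other. Megakaryocytes make these proteins and carry them on their surface before they release platelets.

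Levels are given as log2 intensity minus the 75th percentile of the same array, so that a level can be compared between arrays for one probe but not between probes. Ctrl replicate 1 had the fewest spots well above background (69.1%), and it was alone on its slide, while the other 8 arrays shared one. The 1 dpi arrays also stood apart, with 72.3%, 74.8% and 75.6% of spots well above background against 79.5% to 81.8% on the other 2 Ctrl arrays and at 3 dpi. Their 75th percentiles, at 9.33 to 9.45 on the log2 scale, were below those of all other arrays, at 10.03 to 10.66. The scaling sets the 75th percentiles equal, but it does not even out the rest of the distribution. After it, the median log2 change of all genes tested at 1 dpi was still at 0.25. Ctrl replicate 1 stood apart from the other Ctrl arrays as the highest in Itgb3, Gp1ba, Gp5 and Clec1b. In Itga2 it was the lowest. Changes of these 5 genes against Ctrl are therefore given with and without this array, and the values without it are also those within the shared slide. All 10 genes of a list of megakaryocyte markers were well above background on all 9 arrays, with Pf4, which encodes a platelet chemokine, as the brightest. Of that list, 4 genes are adhesion receptor genes themselves.

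One day after IR, 5 of the 10 receptor genes differed from Ctrl at a Benjamini-Hochberg adjusted p under 0.05 in limma. Itga2b rose 1.61-fold, Itga2 1.57-fold and Gp9 1.38-fold, whereas Gp1ba was at 57% and Gp5 at 69% of the Ctrl level. The 3 genes that rose stand beside 34.8% of all genes tested, and the 2 that fell beside 21.1%. At 3 dpi 6 of the 10 genes were higher than in Ctrl, with Gp6 at 1.94-fold, Gp9 at 1.90-fold, Gp1bb at 1.73-fold, Clec1b at 1.59-fold, Itga2 at 1.50-fold and Cd9 at 1.16-fold. Of all genes tested, 16.9% were higher at 3 dpi and 15.1% were lower, and of the receptor genes 0 were lower by limma at the adjusted threshold or at an unadjusted p under 0.05. From 1 to 3 dpi 7 genes rose, with Gp6 at 1.95-fold, Gp1ba at 1.83-fold, Clec1b at 1.71-fold, Gp1bb at 1.45-fold, Gp9 at 1.38-fold, Cd9 at 1.25-fold and Itgb3 at 1.24-fold, and Itga2b fell to 61% of its level at 1 dpi. These counts of 7 and 1 stand beside 19.8% and 24.9% of all genes tested. The 3 comparisons share arrays with each other.

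A call at the same adjusted p together with at least a 2-fold change was made by limma for 0 of the 10 genes at 1 dpi, beside 15.2% of all genes tested. The same count was 0 at 3 dpi, beside 8.80%, and 0 between 3 and 1 dpi, beside 8.80%. At an unadjusted p under 0.05 with no minimum fold change, limma gave 5, 6 and 8 of the 10 genes in the 3 comparisons, beside 62.1%, 41.5% and 52.5% of all genes tested. The unmoderated test of the study's methods gave 5, 6 and 9, beside 53.3%, 35.8% and 57.5%. After this scaling, the median change of all genes tested was, on the log2 scale, at 0.25 at 1 dpi, at 0.11 at 3 dpi and at -0.11 between 3 and 1 dpi. Relative to this median, 2 of the 10 genes were higher at 1 dpi (20.4% of all genes) and 6 were lower (32.9%). Relative to the median, 5 were higher at 3 dpi (12.9%) and 0 lower (21.9%), again by limma at the adjusted threshold. Between 3 and 1 dpi 7 were higher (25.6%) and 1 was lower (5373 of 29410 genes tested) relative to the median. With the 2-fold minimum as well, Gp1ba was called at 1 dpi (1 of 10, beside 13.0% of all genes) and Gp6 between 3 and 1 dpi (1 of 10, beside 8.41%). The median log2 fold change of the 10 genes was -0.05 at 1 dpi (-0.30 relative to all genes), 0.40 at 3 dpi (0.29 relative to all genes) and 0.39 between 3 and 1 dpi (0.50 relative to all genes).

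**Figure D1:**
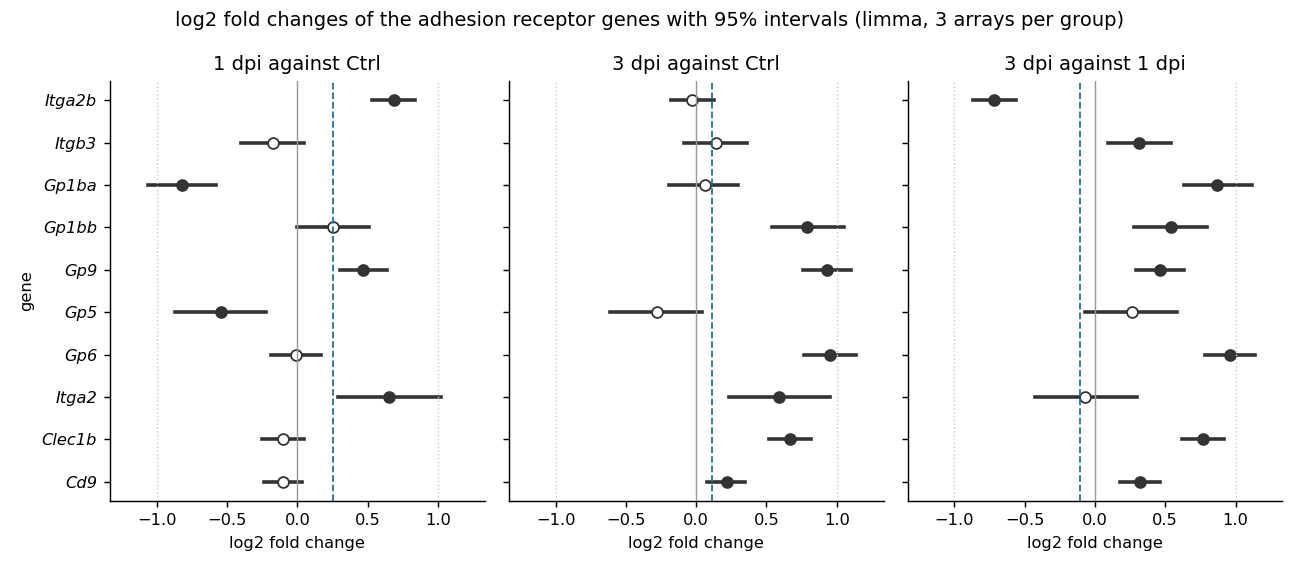
The log2 fold change of each receptor gene (x axis) in the 3 comparisons, with 95% intervals from limma on 3 arrays per group. Filled points passed an adjusted p of 0.05, the dashed line is the median of all genes tested (0.25, 0.11 and -0.11), and the dotted lines mark a 2-fold change, which 0 of the 30 points pass.

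Promoter sequences of 9 of the 10 genes were matched by symbol in the RefSeq table for the assembly GRCm38.p6, which holds 250 bases before to 50 bases after each gene's start, and Itgb3 had no entry. The promoters of 4 genes are shown, since the levels of these genes followed different courses after IR. Itga2b (chr11:102469834-102470133, minus strand) was highest at 1 dpi, Gp9 (chr6:87777820-87778119, plus strand) was higher at both times, Gp1ba (chr11:70638872-70639171, plus strand) was lowest at 1 dpi, and Gp6 (chr7:4397695-4397994, minus strand) was higher at 3 dpi. Each is written 5′ to 3′ on the strand of its gene. Capitals mark the words of a GATA motif (AGATAA or TGATAA or AGATAG or TGATAG) and of an ETS motif (AGGAAG or CGGAAG), which were searched on both strands, so that a word on the other strand appears as its reverse complement.
Itga2b: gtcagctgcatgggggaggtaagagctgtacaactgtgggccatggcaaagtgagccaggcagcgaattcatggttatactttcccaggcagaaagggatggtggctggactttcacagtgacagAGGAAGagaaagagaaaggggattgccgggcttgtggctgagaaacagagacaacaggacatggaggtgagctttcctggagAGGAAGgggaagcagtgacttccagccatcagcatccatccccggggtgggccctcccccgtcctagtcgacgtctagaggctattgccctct
Gp9: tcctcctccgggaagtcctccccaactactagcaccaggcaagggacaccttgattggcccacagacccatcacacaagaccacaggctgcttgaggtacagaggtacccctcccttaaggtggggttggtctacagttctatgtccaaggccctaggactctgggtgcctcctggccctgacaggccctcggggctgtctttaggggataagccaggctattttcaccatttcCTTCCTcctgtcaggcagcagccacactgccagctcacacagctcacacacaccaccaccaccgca
Gp1ba: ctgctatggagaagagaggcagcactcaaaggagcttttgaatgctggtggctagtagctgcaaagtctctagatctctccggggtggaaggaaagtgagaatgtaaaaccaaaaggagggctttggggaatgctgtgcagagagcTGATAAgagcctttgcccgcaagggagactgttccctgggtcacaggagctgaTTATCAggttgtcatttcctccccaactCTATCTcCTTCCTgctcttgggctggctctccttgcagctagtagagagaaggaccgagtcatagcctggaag
Gp6: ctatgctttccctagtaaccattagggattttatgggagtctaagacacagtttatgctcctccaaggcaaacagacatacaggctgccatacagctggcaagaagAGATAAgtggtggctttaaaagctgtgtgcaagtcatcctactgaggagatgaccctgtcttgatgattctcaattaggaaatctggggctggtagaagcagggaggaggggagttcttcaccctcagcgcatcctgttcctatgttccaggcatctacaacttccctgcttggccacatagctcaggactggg

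A GATA word was in the windows of 5 of the 9 genes, beside 29.8% of 32851 promoter windows of the same length, and an ETS word in 6 of the 9, beside 46.5%. Both motifs were in the windows of Gp1ba, Gp1bb and Gp5 (3 of 9, beside 12.6% of all windows), which encode subunits of one complex. In Gp1ba the GATA words begin at -104, -51 and -23 from the start and the ETS word at -16. Itga2b held 2 ETS words, at -125 and -43, and Gp9 held 1, at -16. Gp6 held 1 GATA word, at -144, and Clec1b held 2, at -189 and 38. A word of a RUNX motif (TGTGGT, both strands) was in the window of Gp9 (1 of 9, beside 16.8% of all windows) and is not capitalized. No word of one motif contains a word of another. A match describes the letters of a window, and binding of a factor was not measured here.

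Itga2b, the integrin subunit that carries the CD41 antigen, was measured by 1 probe, which spans 209 bases on the build mm9 (chr11:102319453-102319661) for its 60 bases. Its level was 0.38, 0.32 and 0.29 on the Ctrl arrays, 1.04, 1.04 and 0.98 at 1 dpi and 0.19, 0.38 and 0.33 at 3 dpi. All 3 arrays at 1 dpi were above the other 6, and the arrays at 3 dpi overlapped with Ctrl. The rise at 1 dpi was 0.69 on the log2 scale (SE 0.07, 0.44 relative to all genes, adjusted p = 1.3e-04 from limma), and it passed under all 26 alternative settings that gave a value, at 0.37 to 0.72. At 3 dpi Itga2b was at -0.03 against Ctrl (95% interval -0.18 to 0.13, adjusted p = 0.76). From 1 to 3 dpi it fell by 0.72 (SE 0.07, adjusted p = 1.7e-04). In the order of the group means, 1 dpi (1.02 ± 0.03, SD, n = 3) came before Ctrl (0.33 ± 0.05) and 3 dpi (0.30 ± 0.10), and the last 2 did not differ beyond their spread.

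Itgb3, the beta subunit that pairs with the product of Itga2b, moved less. On its brighter probe (chr11:104531672-104531731 on mm9) the Ctrl arrays were at 4.16, 3.87 and 3.81, the 1 dpi arrays at 3.79, 3.80 and 3.73, and the 3 dpi arrays at 4.16, 4.06 and 4.04. The arrays at 1 dpi lay just under the lowest Ctrl array, and the arrays at 3 dpi lay above 1 dpi and reached as high as Ctrl replicate 1. Against Ctrl, Itgb3 was at -0.17 at 1 dpi (SE 0.10, -0.42 relative to all genes, adjusted p = 0.16), or -0.07 without Ctrl replicate 1. It passed as lower at 1 dpi under 6 of 27 settings, among them relative to the median of all genes (adjusted p = 0.0073), with adjusted p between 0.0073 and 0.37 over the settings. At 3 dpi Itgb3 was at 0.14 (SE 0.10, adjusted p = 0.32), and without Ctrl replicate 1 it passed as higher, at 0.24 (adjusted p = 0.019). From 1 to 3 dpi Itgb3 rose by 0.31 (SE 0.10, adjusted p = 0.032). That call ended when any 1 of the 1 dpi or 3 dpi arrays was left out, at 0.27 to 0.33 with adjusted p between 0.065 and 0.092. In the order of the group means, 3 dpi (4.08 ± 0.06, SD, n = 3) and Ctrl (3.95 ± 0.19) did not differ beyond their spread, and 1 dpi (3.77 ± 0.04) came last.

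The dimmer probe of Itgb3 (chr11:104528625-104528684 on mm9) gave another course. Its level was -1.84, -1.97 and -1.99 in Ctrl, -2.13, -2.26 and -2.50 at 1 dpi and -2.55, -2.29 and -2.03 at 3 dpi. All 6 arrays after IR were under the 3 Ctrl arrays, and both times overlapped with each other. The log2 fold change on this probe was -0.36 at 1 dpi (SE 0.15, adjusted p = 0.067), -0.36 at 3 dpi (adjusted p = 0.10) and 0.01 between both times (adjusted p = 0.98). The authors' deposited log2 values of Itgb3 follow this dimmer probe, within 0.0012, while those of the other 9 genes follow the brighter or single probe used here.

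Within an array, the level of Itga2b minus that of Itgb3 sets the genes of both subunits against each other, and an offset of the whole array cancels. A difference between arrays in the distance of bright from dim probes does not cancel. With the Ctrl mean set to 0, this difference was -0.16, 0.07 and 0.09 in Ctrl, 0.87, 0.85 and 0.86 at 1 dpi and -0.35, -0.06 and -0.09 at 3 dpi. The 3 arrays at 1 dpi were nearly equal and far above the other 6. The mean at 1 dpi was 0.86 ± 0.01 (SD, n = 3), with an exact two-sided permutation p of 0.10 against Ctrl, the smallest that 3 arrays against 3 can give. At 3 dpi the mean was -0.17 ± 0.16 (exact permutation p = 0.30), and it was 0.08 with the mean of both Itgb3 probes and 0.36 with the deposited values, so its sign depends on the probe. This pair and the pairs of genes below were chosen after their values were seen.

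Gp1ba encodes the subunit that binds von Willebrand factor. On its probe (chr11:70455461-70455520 on mm9) the Ctrl arrays were at 1.43, 1.15 and 1.07, the 1 dpi arrays at 0.48, 0.43 and 0.28, and the 3 dpi arrays at 1.33, 1.27 and 1.22. All 3 arrays at 1 dpi were the lowest, and all 3 at 3 dpi lay within the range of Ctrl. At 1 dpi Gp1ba fell by 0.82 (SE 0.10, -1.07 relative to all genes, adjusted p = 4.7e-04), and without Ctrl replicate 1 it fell by 0.71 (adjusted p = 3.6e-04). Over 26 settings the fall at 1 dpi ranged from -1.13 to -0.71 and passed in all of them. At 3 dpi Gp1ba was at 0.06 against Ctrl (95% interval -0.19 to 0.30, adjusted p = 0.71), at 0.16 without Ctrl replicate 1, at -0.06 relative to all genes and at -0.07 with arrays scaled by their median, none of which passed. Gp1ba then rose from 1 to 3 dpi by 0.87 (SE 0.10, adjusted p = 5.0e-04). The mean was highest at 3 dpi (1.27 ± 0.05, SD, n = 3), which did not differ from Ctrl (1.22 ± 0.19) beyond the spread, and lowest at 1 dpi (0.40 ± 0.10).

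Gp1bb encodes the subunit that is joined to the product of Gp1ba by disulfide bonds. On its brighter probe (chr16:18621107-18621166 on mm9) it was at -1.65, -1.72 and -1.82 in Ctrl, at -1.25, -1.49 and -1.68 at 1 dpi and at -0.91, -0.93 and -0.96 at 3 dpi. The arrays at 3 dpi were close together and above all others, while 1 dpi replicate 3 lay within the range of Ctrl. At 1 dpi Gp1bb was at 0.25 (SE 0.11, 0.01 relative to all genes, adjusted p = 0.084), at -0.06 with arrays scaled by their median, and without 1 dpi replicate 3 it passed as higher, at 0.36 (adjusted p = 0.024). Without 1 dpi replicate 1 it was at 0.14 (adjusted p = 0.23), and it passed in 4 of 27 settings, with adjusted p between 0.0011 and 0.97. At 3 dpi Gp1bb rose by 0.79 (SE 0.11, 0.68 relative to all genes, adjusted p = 0.0011), and it passed under all 27 settings, at 0.67 to 0.83. From 1 to 3 dpi it rose by 0.54 (SE 0.11, adjusted p = 0.0058). The group means were -0.93 ± 0.03 (SD, n = 3) at 3 dpi, -1.47 ± 0.22 at 1 dpi and -1.73 ± 0.09 in Ctrl, and the last 2 overlapped.

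The dimmer probe of Gp1bb (chr16:18621717-18621776 on mm9) was already higher at 1 dpi. It was at -4.76, -4.44 and -4.40 in Ctrl, at -3.69, -3.75 and -3.95 at 1 dpi and at -3.75, -3.81 and -3.76 at 3 dpi. All 6 arrays after IR were above the 3 Ctrl arrays, and both times overlapped. The log2 fold change on this probe was 0.74 at 1 dpi (SE 0.11, adjusted p = 0.0011), 0.76 at 3 dpi (adjusted p = 0.0015) and 0.02 between both times (adjusted p = 0.87). Both probes of Gp1bb thus rose at 3 dpi, and they differ on whether the level at 1 dpi was near that of Ctrl or of 3 dpi.

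Gp9, which encodes the small subunit that the complex needs to reach the cell surface, rose in 2 steps. Its probe (chr6:87729650-87729709 on mm9) was at 1.54, 1.48 and 1.43 in Ctrl, at 2.04, 1.93 and 1.87 at 1 dpi and at 2.50, 2.34 and 2.38 at 3 dpi. The 3 groups did not overlap, with Ctrl lowest and 3 dpi highest. Against Ctrl, Gp9 rose by 0.47 at 1 dpi (SE 0.07, 0.22 relative to all genes, adjusted p = 0.0013), although it did not pass with arrays scaled by their median, where it was at 0.15 (adjusted p = 0.37). Over 26 settings the adjusted p at 1 dpi ranged from 2.4e-04 to 0.37. At 3 dpi it rose by 0.93 (SE 0.07, 0.81 relative to all genes, adjusted p = 5.4e-05), at 0.80 to 0.96 over 26 settings. The rise from 1 to 3 dpi was 0.46 (SE 0.07, adjusted p = 0.0018). The group means were 2.41 ± 0.08 (SD, n = 3) at 3 dpi, 1.95 ± 0.09 at 1 dpi and 1.48 ± 0.05 in Ctrl, and each differed from the next by more than the spread.

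Gp5, the subunit with the CD42d antigen, fell at 1 dpi. Its probe (chr16:30308347-30308406 on mm9) was at -0.10, -0.55 and -0.60 in Ctrl, at -0.88, -0.89 and -1.10 at 1 dpi and at -0.79, -0.67 and -0.63 at 3 dpi. Ctrl replicate 1 was far above all other arrays, and the groups did not overlap, with 1 dpi lowest. At 1 dpi Gp5 fell by 0.54 (SE 0.14, -0.79 relative to all genes, adjusted p = 0.013), or by 0.38 without Ctrl replicate 1 (adjusted p = 0.009). The unmoderated test of the methods gave an adjusted p of 0.073 for it, within a range of 0.002 to 0.073 over 26 settings. At 3 dpi Gp5 was at -0.28 (SE 0.14, adjusted p = 0.17), or at -0.13 without Ctrl replicate 1. The level at 3 dpi was 0.26 above that at 1 dpi (SE 0.14, adjusted p = 0.17), and this difference passed without Ctrl replicate 1 (adjusted p = 0.027). The group means were -0.41 ± 0.28 (SD, n = 3) in Ctrl, -0.70 ± 0.08 at 3 dpi and -0.96 ± 0.13 at 1 dpi.

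**Figure D2:**
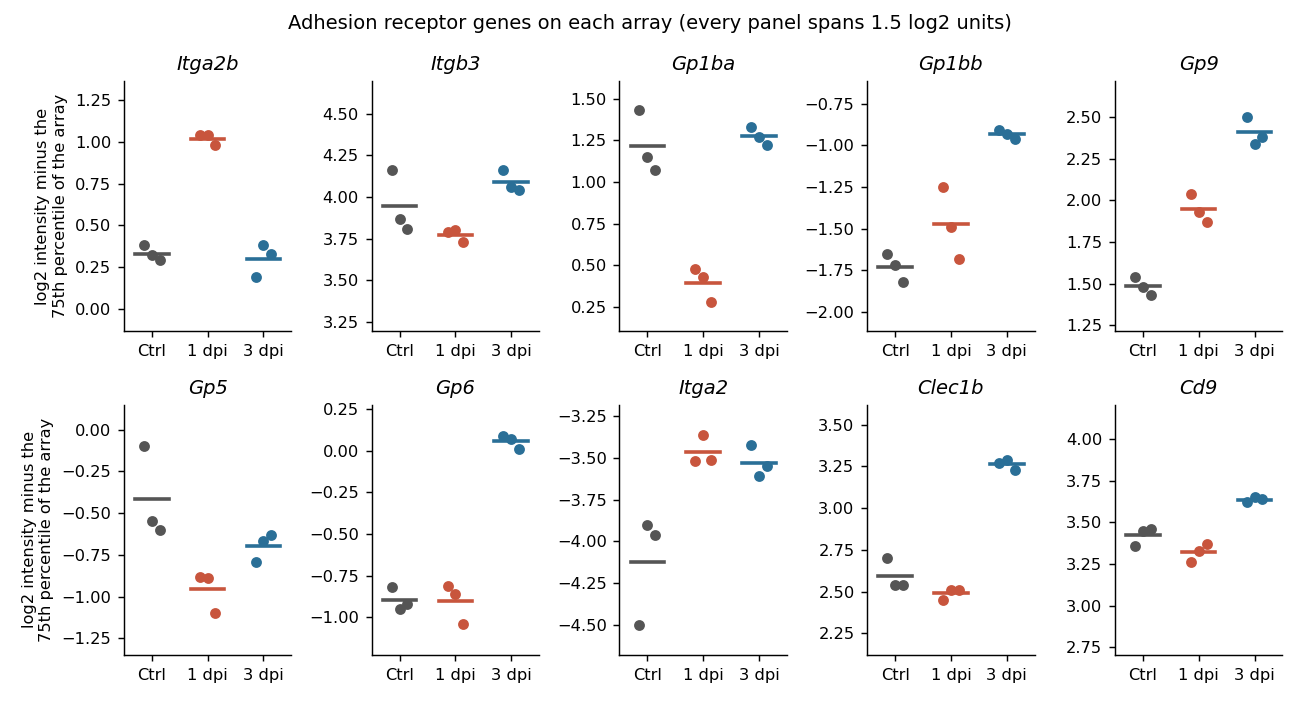
Level of each receptor gene (y axis, log2 intensity minus the 75th percentile of the array) on each of the 9 arrays by group, with the group mean as a line and 1.5 log2 units in every panel. Itga2b was highest and Gp1ba lowest at 1 dpi, Gp9 rose in 2 steps, and Gp6 and Clec1b were higher at 3 dpi.

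Among the 4 genes of the complex, Gp9 and Gp1bb stayed closest to each other by the group means of the brighter or single probes. Each of them moved away from Gp1ba and Gp5. Within an array, the level of Gp9 minus that of Gp1ba (Ctrl mean set to 0) was -0.15, 0.06 and 0.10 in Ctrl, 1.30, 1.23 and 1.33 at 1 dpi and 0.91, 0.80 and 0.90 at 3 dpi. All 6 arrays after IR were above the 3 Ctrl arrays, and the arrays at 1 dpi were the highest. The mean was 1.28 ± 0.05 (SD, n = 3) at 1 dpi and 0.87 ± 0.06 at 3 dpi, each with an exact permutation p of 0.10 against Ctrl, the smallest possible. Gp1bb minus Gp1ba behaved in like manner, at 1.07 ± 0.13 at 1 dpi and 0.74 ± 0.03 at 3 dpi (exact permutation p = 0.10 for each). Gp9 minus Gp5 was at 1.01 ± 0.08 at 1 dpi and 1.21 ± 0.16 at 3 dpi (exact permutation p = 0.10 for each). Gp5 minus Gp1bb was at -0.80 ± 0.13 at 1 dpi and -1.08 ± 0.11 at 3 dpi (exact permutation p = 0.10 for each). By the group means Gp9 minus Gp1bb moved least of the 6 pairs, with 0.21 ± 0.14 at 1 dpi and 0.13 ± 0.07 at 3 dpi (exact permutation p = 0.10 for each). With the mean of both Gp1bb probes it was at -0.03 at 1 dpi. Without 1 dpi replicate 1, Gp9 minus Gp1bb and Gp5 minus Gp1ba were both at 0.28 at 1 dpi. Gp5 minus Gp1ba changed sides, with 0.28 ± 0.03 at 1 dpi and -0.34 ± 0.13 at 3 dpi (exact permutation p = 0.10 for each). Such a difference shows that the levels of a pair of genes changed unequally, and not which of them changed.

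**Figure D3:**
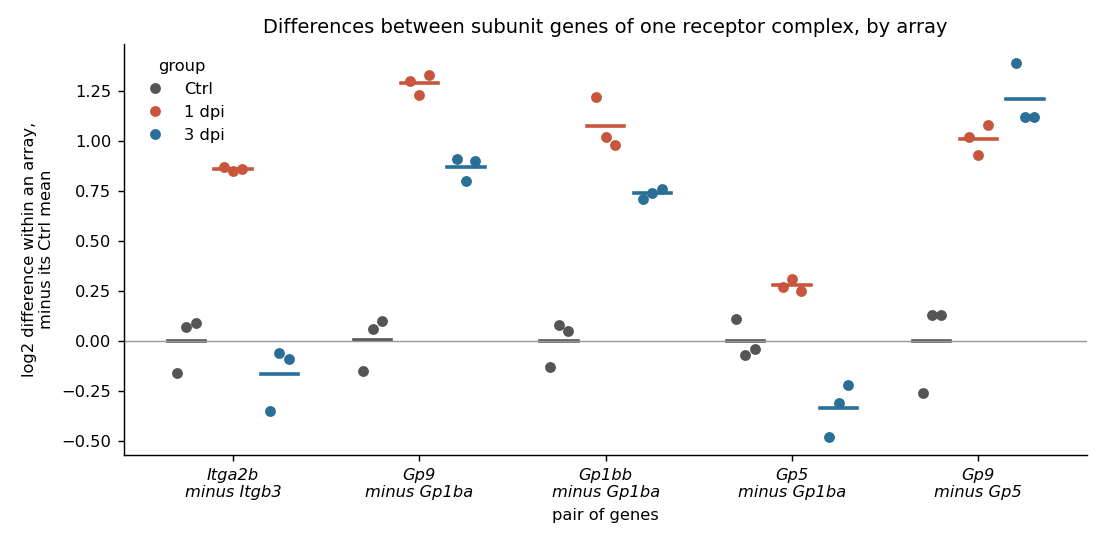
Level of one subunit gene minus that of another on the same array (y axis, log2, Ctrl mean set to 0) for 5 pairs, with each array as a point and the group mean as a line. On the brighter Itgb3 probe, Itga2b minus Itgb3 was at 0.86 at 1 dpi and overlapped with Ctrl at 3 dpi, where its sign depends on the probe. Gp9 minus Gp1ba was at 1.28 and 0.87.

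Gp6 encodes the collagen receptor that signals through the Fc receptor gamma chain. Its brighter probe (chr7:4320355-4320414 on mm9) was at -0.82, -0.95 and -0.92 in Ctrl, at -0.81, -0.86 and -1.04 at 1 dpi and at 0.09, 0.07 and 0.01 at 3 dpi. The 3 arrays at 3 dpi were close together and above the other 6, and 1 dpi overlapped with Ctrl. At 1 dpi Gp6 was at -0.01 (95% interval -0.19 to 0.17, adjusted p = 0.93) and at -0.26 relative to all genes, where it passed as lower (adjusted p = 0.025). At 3 dpi it rose by 0.95 (SE 0.08, 0.84 relative to all genes, adjusted p = 6.6e-05), and from 1 to 3 dpi it rose by 0.96 (SE 0.08, 1.07 relative to all genes, adjusted p = 9.6e-05). Both rises passed under all 27 settings. The dimmer probe of Gp6 gave -0.05 at 1 dpi, 0.85 at 3 dpi (adjusted p = 1.1e-04) and 0.90 between both times (adjusted p = 1.1e-04). The mean at 3 dpi was 0.06 ± 0.04 (SD, n = 3), and those of Ctrl (-0.90 ± 0.07) and 1 dpi (-0.91 ± 0.12) did not differ beyond their spread.

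Itga2, the alpha subunit of the collagen-binding integrin, was dim on this array, although well above background on all 9 arrays. Its probe (chr13:115626714-115626773 on mm9) was at -4.50, -3.90 and -3.96 in Ctrl, at -3.52, -3.36 and -3.51 at 1 dpi and at -3.42, -3.61 and -3.55 at 3 dpi. All 6 arrays after IR were above the 3 Ctrl arrays, Ctrl replicate 1 was far below the rest, and both times overlapped. At 1 dpi Itga2 rose by 0.65 (SE 0.16, adjusted p = 0.0091), or by 0.47 without Ctrl replicate 1 (adjusted p = 0.003). The call at 1 dpi ended relative to all genes, at 0.41 (adjusted p = 0.059), and with the unmoderated test of the methods (adjusted p = 0.062). Over 26 settings the change at 1 dpi ran from 0.29 to 0.76 and the adjusted p from 6.3e-06 to 0.062. At 3 dpi it rose by 0.59 (SE 0.16, 0.48 relative to all genes, adjusted p = 0.023), or by 0.40 without Ctrl replicate 1 (adjusted p = 0.0093). That call ended without 3 dpi replicate 1 (0.53, adjusted p = 0.074), without 3 dpi replicate 2 (0.63, adjusted p = 0.05 after rounding) and without 3 dpi replicate 3 (0.60, adjusted p = 0.062). It also ended with only the 2 compared groups (adjusted p = 0.063) and with the unmoderated test of the methods after adjustment (adjusted p = 0.12). The call passed in the other 21 of 26 settings, and over all of them the change was 0.31 to 0.70 and the adjusted p 0.0035 to 0.12. Itga2 at 3 dpi was at -0.07 against 1 dpi (adjusted p = 0.76), with the opposite sign relative to all genes (0.04), with quantile normalization (0.14) and with arrays scaled by their median (0.13), none of which passed. With normexp background correction it was at -0.42 and passed as lower (adjusted p = 1.7e-04), the only one of 26 settings to do so, with adjusted p up to 0.96. The group means were -3.46 ± 0.09 (SD, n = 3) at 1 dpi and -3.53 ± 0.10 at 3 dpi, which did not differ beyond their spread, and -4.12 ± 0.33 in Ctrl. The genes of the 2 collagen receptors thus differed at 1 dpi, where Gp6 minus Itga2 was at -0.66 ± 0.13 (SD, n = 3, exact permutation p = 0.10), while at 3 dpi this difference was 0.36 ± 0.09 (exact permutation p = 0.30). Ctrl replicate 1, at 0.46, stood apart in this pair from the other Ctrl arrays, at -0.27 and -0.19. Without it the difference was -0.43 at 1 dpi and 0.59 at 3 dpi, where all 3 arrays were then above Ctrl.

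**Figure D4:**
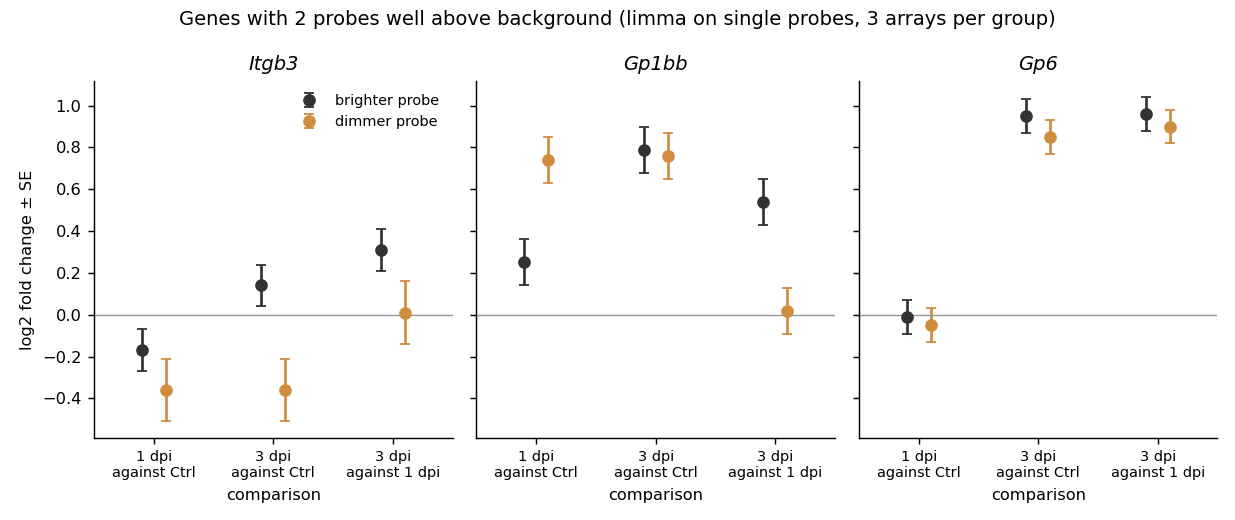
The log2 fold change ± SE (y axis, limma on single probes, 3 arrays per group) in the 3 comparisons for the brighter and the dimmer probe of Itgb3, Gp1bb and Gp6. The probes of Gp6 lie together, those of Gp1bb part at 1 dpi (0.25 and 0.74), and those of Itgb3 part at 3 dpi (0.14 and -0.36).

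Clec1b encodes the podoplanin receptor CLEC-2. Its probe (chr6:129355215-129355274 on mm9) was at 2.70, 2.54 and 2.54 in Ctrl, at 2.45, 2.51 and 2.51 at 1 dpi and at 3.27, 3.29 and 3.23 at 3 dpi. The arrays at 3 dpi were above all others, and those at 1 dpi lay just under Ctrl. Against Ctrl, Clec1b was at -0.10 at 1 dpi (SE 0.07, adjusted p = 0.22), at -0.04 without Ctrl replicate 1 and at -0.35 relative to all genes, where it passed as lower (adjusted p = 0.0028), with adjusted p between 0.0028 and 0.48 over 26 settings. At 3 dpi it rose by 0.67 (SE 0.07, adjusted p = 1.6e-04, 0.56 relative to all genes, or 0.73 without Ctrl replicate 1), and from 1 to 3 dpi it rose by 0.77 (SE 0.07, adjusted p = 1.2e-04). Both rises passed under all 26 settings. The mean at 3 dpi was 3.26 ± 0.03 (SD, n = 3), and those of Ctrl (2.59 ± 0.10) and 1 dpi (2.49 ± 0.03) were within the Ctrl spread of each other.

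Cd9 encodes a tetraspanin that is found on many cell types and sits beside integrins in the platelet membrane. Its main probe (chr6:125410631-125410690 on mm9) was at 3.36, 3.45 and 3.46 in Ctrl, at 3.26, 3.33 and 3.37 at 1 dpi and at 3.62, 3.65 and 3.64 at 3 dpi. The arrays at 3 dpi were above all others by a small step, and 1 dpi overlapped with Ctrl. At 1 dpi Cd9 was at -0.10 (SE 0.06, adjusted p = 0.16) and at -0.35 relative to all genes, where it passed as lower (adjusted p = 0.0014), with adjusted p between 0.0014 and 0.37 over 26 settings. At 3 dpi it rose by 0.22 (SE 0.06, adjusted p = 0.025). That rise did not pass relative to all genes, at 0.10 (adjusted p = 0.23), nor without Ctrl replicate 2 (0.23, adjusted p = 0.056), without 3 dpi replicate 2 (0.21, adjusted p = 0.085) or without 3 dpi replicate 3 (0.21, adjusted p = 0.074), and it passed in 18 of 26 settings, over which the change was 0.09 to 0.23 and the adjusted p 0.0024 to 0.59. The other losses were with quantile normalization (0.16), with arrays scaled by their median (0.09), in the deposited values (0.16) and with only the 2 compared groups (adjusted p = 0.067). From 1 to 3 dpi Cd9 rose by 0.32 (SE 0.06, adjusted p = 0.0034). The group means were 3.64 ± 0.01 (SD, n = 3) at 3 dpi, 3.42 ± 0.05 in Ctrl and 3.32 ± 0.06 at 1 dpi. A second Cd9 probe was well above background on 0 of 9 arrays and was not used.

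The genes whose levels were most like those of Itga2b over the 9 arrays were LOC328066 and Herc6 (Pearson r = 0.997 each) and a transcript named by its position, chr19:5798135-5800557_R (r = 0.994). For Gp5 they were chr7:134807861-134809001_R and BC023263 (r = 0.969 each) and Dnajc9 (r = 0.965). They were taken from 23997 genes well above background on all 9 arrays, and r is given as a description, since arrays of one group are alike. Herc6 was at 0.64 at 1 dpi and at -0.01 at 3 dpi, beside 0.69 and -0.03 for Itga2b. Dnajc9 was at -0.31 and -0.18, beside -0.54 and -0.28 for Gp5.

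Of 15 genes for partners of these receptors, 7 rose and 2 fell at 1 dpi, beside 34.8% and 21.1% of all genes (median 0.29). Relative to all genes the median was 0.04, with 3 higher and 5 lower, beside 20.4% and 32.9%. At 3 dpi 5 rose and 1 fell, beside 16.9% and 15.1% (median 0.16). Between 3 and 1 dpi 3 rose and 2 fell, beside 19.8% and 24.9% (median -0.01). Fcer1g, the gamma chain through which the product of Gp6 signals, rose by 0.59 at 1 dpi (adjusted p = 0.0031, SE 0.11) and at 3 dpi its change was 0.28 (adjusted p = 0.093), or 0.40 without Ctrl replicate 1 (adjusted p = 0.0056). Itgb1, the beta subunit that pairs with the product of Itga2, was at 0.29 at 1 dpi (adjusted p = 0.035), or at -0.03 with arrays scaled by their median. At 3 dpi Itgb1 was at 0.32 (adjusted p = 0.036), its second brightest probe at 0.41 (adjusted p = 0.0018) and its dimmest probe at -0.87 (adjusted p = 0.025). In the deposited values Itgb1 had the opposite sign at both times. The Itgb1 calls ended in 6 of 9 fits without 1 array at 1 dpi (0.25 to 0.31) and in 7 of 9 at 3 dpi (0.22 to 0.35). Ptgfrn, which encodes a partner of CD9 in the membrane, rose by 1.76 at 1 dpi (adjusted p = 3.0e-05, SE 0.13) and by 2.90 at 3 dpi (adjusted p = 2.3e-06). Adam10, a protease that sheds the product of Gp6, fell by 0.39 at 1 dpi (adjusted p = 0.0032) on its brighter probe and was at 0.75 on the other.

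Genes for ligands of the receptors moved further. Of 15 such genes 13 could be tested, Fgg and Vtn being too dim. At 1 dpi 10 rose and 2 fell, beside 34.8% and 21.1% of all genes, with a median of 1.57. Relative to all genes this median was 1.32, with 9 higher and 2 lower, beside 20.4% and 32.9%. At 3 dpi 9 rose and 0 fell by limma, beside 16.9% and 15.1%, with a median of 1.35. Relative to all genes it was 1.24, with 9 higher and 1 lower, beside 12.9% and 21.9%. Between 3 and 1 dpi 5 rose and 3 fell, beside 19.8% and 24.9% (median 0.08). Among the collagens bound by the products of Gp6 and Itga2, Col1a1 rose by 2.22 at 1 dpi (adjusted p = 6.4e-07, SE 0.07) and by 3.15 at 3 dpi (adjusted p = 1.8e-07). Col1a2 rose by 2.36 and 3.50, Col3a1 by 1.72 and 3.74 and Col4a1 by 2.02 and 2.32 at the same times. Lama4, a laminin chain, rose by 2.24 at 1 dpi (adjusted p = 6.3e-06, SE 0.12) and by 2.86 at 3 dpi. Pdpn, which encodes the ligand of CLEC-2, was highest at 1 dpi, where it rose by 1.52 (SE 0.10, adjusted p = 1.9e-05), and at 3 dpi it still stood 0.83 above Ctrl (adjusted p = 5.1e-04). Clec1b itself was at -0.10 and 0.67 at these times. Some stromal and endothelial markers that are not on the ligand list rose as well. Cxcl12 was at 2.71 and 3.50, Dcn at 1.52 and 3.65 and Cdh5 at 1.74 and 2.40. Of 9 stromal markers, Col1a1 and Col1a2 among them, 6 rose and 1 fell at 1 dpi, and 5 rose and 1 fell at 3 dpi. Of 8 endothelial markers 7 rose at each time. Pdgfrb fell at both times (-0.41 and -0.39), Tek fell at 1 dpi (-0.91), Lepr rose at 1 dpi only, and Pdgfra and Kitl did not pass. The part of cells with these markers in the ligand changes was not tested.

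The ligand genes of the fibrinogen receptor and of the von Willebrand factor receptor differed among themselves. Fga, a fibrinogen chain, rose by 1.57 at 1 dpi (adjusted p = 0.008, SE 0.36) and at 3 dpi its change was 0.05 (adjusted p = 0.93), or -0.07 relative to all genes and -0.39 without Ctrl replicate 1 (adjusted p = 0.2), which was the lowest of all arrays for Fga. Fgb rose by 0.78 at 1 dpi (adjusted p = 0.048), a call that ended in 7 of 9 fits without 1 array, at 0.53 to 0.82, and was at -0.14 at 3 dpi. Fn1, which encodes fibronectin, fell by 0.66 at 1 dpi (adjusted p = 9.2e-04), with its 4 probes between -1.40 and 0.37, and rose by 1.35 at 3 dpi (adjusted p = 3.0e-05), with its probes between 1.20 and 1.54. Vwf was at 0.06 at 1 dpi (adjusted p = 0.58, or -0.19 relative to all genes), and the deposited values gave it a negative change there as well. At 3 dpi Vwf was at -0.05 (adjusted p = 0.71, or 0.04 without Ctrl replicate 1), while its dimmer probes were at -1.34 and -0.78.

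Downstream of the receptors, 18 genes of signalling from immunoreceptor motifs and of integrin activation were tested, of which most passed in neither direction. At 1 dpi 4 rose and 4 fell, beside 34.8% and 21.1% of all genes (median 0.01, or -0.23 relative to all genes, where 0 were higher by limma and 8 lower). At 3 dpi 1 rose and 1 fell, beside 16.9% and 15.1% (median -0.02), and between 3 and 1 dpi 2 rose and 2 fell, beside 19.8% and 24.9% (median 0.01, or 0.12 relative to all genes, where 7 were higher and 2 lower). Syk, the kinase shared by the products of Gp6 and Clec1b, was at 0.08 at 1 dpi (adjusted p = 0.38, -0.16 relative to all genes) and at -0.14 at 3 dpi (adjusted p = 0.22), or at -0.22 at 3 dpi without 3 dpi replicate 1 (adjusted p = 0.043). Of the dimmer probes of Syk at 1 dpi, 1 was at 0.06, and 2 rose, by 0.68 (adjusted p = 8.0e-04) and 0.57 (adjusted p = 0.012). Lyn, a kinase bound to the product of Gp6, rose by 0.37 at 1 dpi (adjusted p = 5.7e-04) and was the gene that rose at 3 dpi, by 0.48 (adjusted p = 2.2e-04), while its dimmer probe was at 0.20 and 0.21 and did not pass. Lat, an adaptor, was at 0.31 at 1 dpi (adjusted p = 0.014), or at -0.00 with arrays scaled by their median. It was the gene that fell at 3 dpi, at -0.31 (adjusted p = 0.022), and this call ended in 4 of 9 fits without 1 array (without Ctrl replicate 2 or 3, or 3 dpi replicate 2 or 3), at -0.30 to -0.26. Tln1, which encodes talin, the activator of the integrin of Itga2b and Itgb3, was at 0.37 at 1 dpi (adjusted p = 0.0046), or at -0.06 with quantile normalization, and its dimmer probe was at 1.04. Pik3cb fell by 0.60 at 1 dpi (adjusted p = 3.6e-04) on its brighter probe and was at -0.13 on the other (adjusted p = 0.13).

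Of 19 genes for other platelet surface proteins, 7 rose and 3 fell at 1 dpi, beside 34.8% and 21.1% of all genes (median -0.00). Relative to all genes the median was -0.25, with 1 higher and 9 lower, beside 20.4% and 32.9%. At 3 dpi 9 rose and 3 fell, beside 16.9% and 15.1% (median 0.17, or 0.06 relative to all genes). Between 3 and 1 dpi 4 rose and 1 fell, beside 19.8% and 24.9% (median 0.11). Jam3, a junctional adhesion molecule, rose by 0.39 at 1 dpi (adjusted p = 0.0031) and by 1.26 at 3 dpi (SE 0.07, adjusted p = 1.1e-05). Mpig6b, an inhibitory receptor of megakaryocytes, was at 0.24 at 1 dpi (adjusted p = 0.056, -0.00 relative to all genes, and 0.31 with adjusted p = 0.023 without Ctrl replicate 1) and rose by 1.18 at 3 dpi (SE 0.09, adjusted p = 5.5e-05). Cd36, which binds collagen and thrombospondin, rose by 2.50 and 2.78.

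The genes of 13 transcription factors of megakaryocytes were mostly lower after IR. At 1 dpi 0 rose by limma and 11 fell, beside 34.8% and 21.1% of all genes, with a median of -0.62. Relative to all genes this median was -0.86, and 13 were lower, beside 32.9%. At 3 dpi 0 rose by limma and 8 fell, beside 16.9% and 15.1% (median -0.47, or -0.58 relative to all genes). Between 3 and 1 dpi 4 rose and 5 fell, beside 19.8% and 24.9% (median -0.13, or -0.01 relative to all genes). Zfpm1, which encodes the partner of GATA1 known as FOG, fell by 1.33 at 1 dpi (SE 0.08, adjusted p = 1.7e-05) and by 1.65 at 3 dpi, and its dimmer probe fell by 0.58 and 2.12. Gata1 fell by 0.67 at 1 dpi (SE 0.10, adjusted p = 0.001) and by 0.80 at 3 dpi (adjusted p = 6.5e-04). Fli1, an ETS factor, fell by 0.62 at 1 dpi (SE 0.06, adjusted p = 1.4e-04), and by 3 dpi its change was -0.08 (adjusted p = 0.34). Gfi1b fell by 0.60 and 1.19, Tal1 fell by 0.68 and 1.08 and Nfe2 fell by 0.37 and 0.54 at these times. Runx1 fell by 1.00 at 1 dpi (adjusted p = 1.7e-04) on its brightest probe, while its other probes were at 0.29 and 0.85.

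Of 22 genes of megakaryocyte identity besides the receptor genes, 3 rose and 10 fell at 1 dpi, beside 34.8% and 21.1% of all genes. Their median was -0.20, or -0.45 relative to all genes. At 3 dpi 5 rose and 10 fell, beside 16.9% and 15.1% (median -0.19, or -0.31 relative to all genes). Between 3 and 1 dpi 6 rose and 7 fell, beside 19.8% and 24.9% (median -0.07, or 0.04 relative to all genes). Of these 22 genes, 7 are also on the list of transcription factors, and Zfpm1, Gfi1b and Tal1 among them fell at both times, as given above. Runx1 fell at both times on its brightest probe only. At 3 dpi this probe was at -0.47 (adjusted p = 0.01 from limma), and its other probes were at -0.02 and 0.10. Of other megakaryocyte genes, Mmrn1 was at -0.96 at 1 dpi (adjusted p = 1.7e-05) and at -0.16 at 3 dpi (adjusted p = 0.082). Rab27b was at -0.58 at 1 dpi (adjusted p = 9.4e-04) and at -0.55 at 3 dpi (adjusted p = 0.0019). Pf4 was at 0.09 at 1 dpi (adjusted p = 0.24), or at -0.15 relative to all genes and at -0.34 with quantile normalization. Ppbp, another chemokine of alpha granules, was at -0.09 at 1 dpi (adjusted p = 0.54, or 0.05 without Ctrl replicate 1), and it rose by 0.64 at 3 dpi (adjusted p = 0.0047). Tubb1, the beta tubulin of platelets, rose by 0.48 at 1 dpi (adjusted p = 0.0019) and by 0.80 at 3 dpi (adjusted p = 2.2e-04). P2ry12, the ADP receptor gene, was at 0.20 at 1 dpi (adjusted p = 0.23, or -0.05 relative to all genes) and rose by 1.80 at 3 dpi (adjusted p = 3.8e-05).

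For lists of cell type markers, the summed signal is given as a multiple of the 75th percentile of the array. The 10 megakaryocyte markers summed to 139, 124 and 124 in Ctrl, 132, 120 and 118 at 1 dpi and 131, 130 and 128 at 3 dpi, so that the groups overlapped. Such a sum follows its brightest genes, here Pf4, and of these 10 markers 3 rose and 4 fell at 1 dpi (median -0.19). For each list below, the sum is therefore given with the markers that departed from it. Beside the counts of markers stand the shares of all genes tested. Of these, 34.8% rose and 21.1% fell at 1 dpi, 16.9% and 15.1% at 3 dpi, and 19.8% and 24.9% between 3 and 1 dpi. The 11 macrophage markers (11 of 11 well above background, Csf1r the brightest) summed to 59.7, 53.4 and 51.3 in Ctrl, 79.2, 74.4 and 78.4 at 1 dpi and 137, 134 and 131 at 3 dpi. Of these, 3 fell at 1 dpi, with Timd4 at -2.52 and Cd163 at -2.07, while all 11 rose at 3 dpi. The 7 osteoclast markers (Acp5 the brightest, Calcr not well above background on 2 arrays) summed to 31.6, 25.5 and 25.4, then 34.8, 36.1 and 36.1, then 63.5, 61 and 56. Both sums stepped up with time and the groups did not overlap, but of the osteoclast markers Acp5 itself did not pass at 1 dpi (0.10, adjusted p = 0.4), Mmp9 was highest at 1 dpi (1.00, then 0.21) and Calcr did not pass at either time. Itgb3 is known to be expressed in osteoclasts and macrophages, and Cd9 in many cells of the marrow. The 12 T and NK cell markers (12 of 12, Nkg7 the brightest) summed to 30.7, 32.5 and 30.9 in Ctrl, 45.7, 42.4 and 42.8 at 1 dpi and 40.3, 36.8 and 35.8 at 3 dpi. The sum was higher on all 6 arrays after IR, as was Itga2, which encodes an integrin subunit known on NK cells. This is not particular to these cells, since the macrophage, osteoclast, stromal, endothelial, and mast cell and basophil sums were higher on all 6 arrays too. The T and NK cell sum fell from 1 to 3 dpi with Nkg7 (-0.33). The median of the 12 markers relative to all genes, however, went from 0.41 at 1 dpi to 1.28 at 3 dpi. Between these times 6 rose, among them Klrd1 (1.78) and Cd3g (1.42), and 2 fell.

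The 9 stromal markers (9 of 9, Cxcl12 the brightest, Col1a1 and Col1a2 among them) summed to 10.2, 9.85 and 10.3 in Ctrl, 50.8, 43.7 and 47.6 at 1 dpi and 91.5, 83.9 and 90.4 at 3 dpi. Of these 9, 6 rose and 1 fell at 1 dpi and 5 rose and 1 fell at 3 dpi. Pdgfrb fell at both times (-0.41 and -0.39), Lepr rose at 1 dpi and fell from 1 to 3 dpi (-0.97), and Pdgfra and Kitl did not pass. The 8 endothelial markers (Stab2 the brightest, Flt4 not well above background on 2 arrays) summed to 3.4, 2.99 and 3.09, then 6.64, 5.84 and 6.08, then 12.4, 10.4 and 10.8. Of these 8, 7 rose at each time, while Tek fell at 1 dpi (-0.91) and was at 0.02 at 3 dpi. The 8 neutrophil markers (8 of 8, Mpo the brightest) summed to 997, 1070 and 1050 in Ctrl, 1800, 1670 and 1640 at 1 dpi and 1120, 997 and 1060 at 3 dpi. Of these, 6 rose at 1 dpi, Ngp and Ly6g did not, and Ly6g fell at 3 dpi (-0.64). The 8 mast cell and basophil markers (8 of 8, Prss34 the brightest) summed to 154, 135 and 129, then 388, 392 and 388, then 257, 243 and 234. That sum follows Prss34, while Kit fell at both times (-1.08 and -1.32), Gata2 fell at 1 dpi (-0.27), Tpsb2 was highest at 3 dpi (1.34, then 2.01) and Ms4a2 was about equal at both times (0.44 and 0.48).

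The 7 dendritic cell and monocyte markers (6 of 7, Ly6c2 the brightest, Xcr1 not well above background on any array) summed to 156, 155 and 156 in Ctrl, 254, 242 and 236 at 1 dpi and 163, 152 and 157 at 3 dpi. Of the 6 tested, 3 rose and 1 fell at 1 dpi, Ccr2 was highest at 3 dpi (-0.21, then 1.63), and Flt3 was highest in Ctrl (-1.65, then -2.14). The 8 B cell markers (8 of 8, Cd79b the brightest) summed to 28.9, 27.3 and 28 in Ctrl, 5.81, 5.56 and 5.73 at 1 dpi and 5.52, 5.37 and 5.35 at 3 dpi. The 7 stem and progenitor cell markers (Cd34 the brightest, Mecom not well above background on 1 Ctrl array) summed to 57.9, 56.6 and 54.9, then 35.2, 35.5 and 36.3, then 27, 26.3 and 25.1. The last 2 sums were lower on all 6 arrays after IR, while Pax5 of the B cell list rose at 1 dpi (0.56), and of the progenitor list Mecom passed at neither time and Cd48 fell at 1 dpi only (-0.36, then 0.13). The part of these cells in the levels of the receptor genes was not tested.

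**Figure D5:**
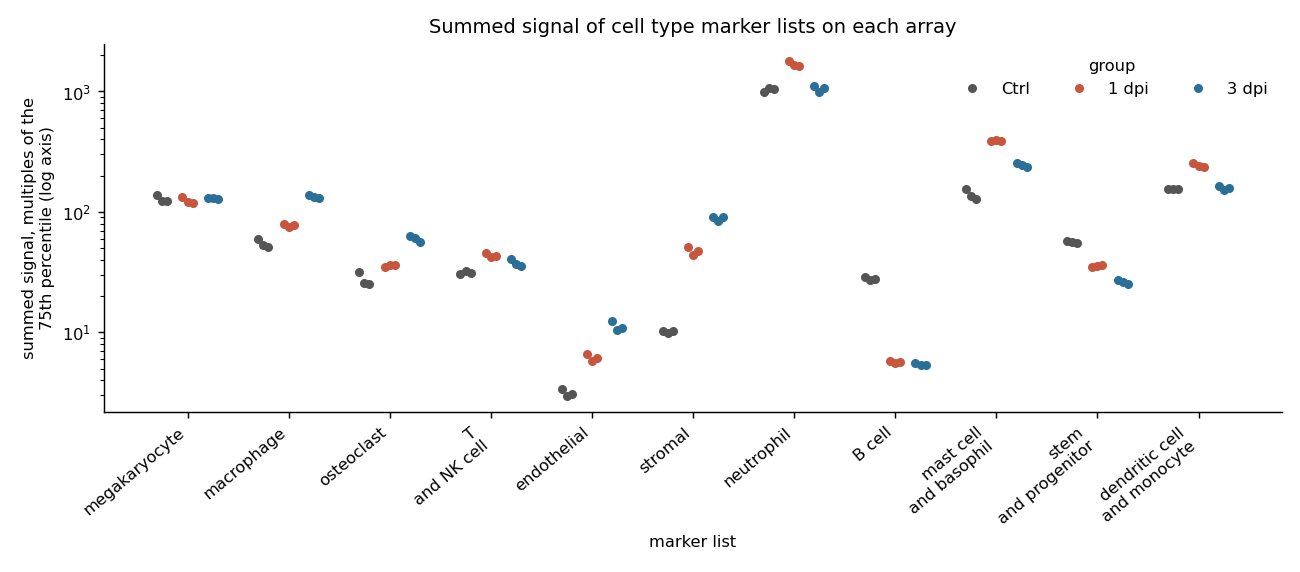
Summed signal of 11 marker lists (y axis, multiples of the array's 75th percentile, log axis) on each of the 9 arrays by group. The megakaryocyte sum stays between 118 and 139, while the macrophage and stromal sums step up with time and the neutrophil and mast cell sums are highest at 1 dpi, and each sum follows the brightest markers of its list.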

How the data were processed

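RNA of mMKs was measured on 9 Agilent 1-colour arrays (design 074809). The authors deposited spot intensities from Agilent Feature Extraction 10.7.1.1, in the unit intensity, background-subtracted, with arrays not yet brought to one scale. A second deposited file by the authors holds log2 values per gene name, with nearly equal quartiles on all arrays, and how they were made is not stated. These were used as an alternative, so of the deposited columns of values 0 were unused. The study's methods describe an Affymetrix chip and were not followed on this point.

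Spots of a probe were averaged, and 20 probes marked as outliers were left out. Intensities were put on the log2 scale and reduced by the 75th percentile of the array. A probe was kept if 1 or more groups had it well above background on each of their 3 arrays, and the probe with the highest mean stood for its gene. The 9 arrays were fitted together with limma 3.58.1 in R 4.3.3 (two-sided, Benjamini-Hochberg over 29410 genes), and files were read with the package data.table (1.17.8). A call needed a change of 2-fold or more and an adjusted p under 0.05, and "rose" or "fell" means the adjusted p alone. The procedure was tested on simulated data, and the outcome of that test is not used here. The number of arrays limits the precision, and an exact permutation test of 3 against 3 cannot give a p under 0.10. Python 3.11.15 with matplotlib 3.10.9 made the figures.

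The receptor genes and all lists were chosen with earlier results of these data known. Named genes are the 10 receptor genes, up to 4 called genes of each list with the largest change among those well above background in both groups, and list genes named as a known partner, ligand, signalling protein or regulator. The 3 genes most like Itga2b and Gp5 were taken by Pearson correlation. Pf4, Ppbp and Tubb1 are named as known genes of megakaryocytes and platelets. Markers named as the brightest of their list or as departing from it, Mmrn1, Rab27b and the pairs of genes were chosen after their values were seen. Alternatives were quantile normalization, scaling to the array median, changes relative to the median of all genes, normexp background correction with an offset of 50, no filter or a filter on all 9 arrays, the mean of the probes or every probe alone, the deposited log2 values, a replicate block, a slide block, the 2 compared groups alone, eBayes with trend and robust, no minimum fold change, the methods' unmoderated test, and leaving out each array.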

Additional observations from a re-analysis of the deposited data

Results flagged for a closer look

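For 8 of the 10 receptor genes the change against Ctrl differed between 3 and 1 dpi, by limma's test of the difference itself, at an adjusted p under 0.05, beside 44.6% of all genes tested. The log2 fold change at 3 dpi minus that at 1 dpi was -0.72 for Itga2b (adjusted p = 1.7e-04), higher at 1 dpi in 3 of 3 arrays than on any array at 3 dpi. For the other 7 genes all 3 arrays at 3 dpi were above all 3 at 1 dpi on the brighter or single probe, while the arrays overlapped on the dimmer probes of Itgb3 (0.01, adjusted p = 0.98) and Gp1bb (0.02, adjusted p = 0.87). The difference was 0.96 for Gp6 (adjusted p = 9.6e-05), 0.87 for Gp1ba (adjusted p = 5.0e-04) and 0.77 for Clec1b (adjusted p = 1.2e-04). It was 0.54 for Gp1bb (adjusted p = 0.0058), 0.46 for Gp9 (adjusted p = 0.0018), 0.32 for Cd9 (adjusted p = 0.0034) and 0.31 for Itgb3 (adjusted p = 0.032), which no longer passed without any 1 of the 1 dpi or 3 dpi arrays. Both changes share the Ctrl arrays, so the difference is that between 3 and 1 dpi. With 3 arrays per group, single arrays were not tested for standing apart.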

How the results depend on the processing

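Of the 789 fold changes of the receptor genes under alternatives, 736 kept their side of the threshold, 26 came to pass it and 27 no longer passed it. Of those that passed it either way, 0 reversed. The 736 include values that passed neither way and changed sign, such as Gp1bb at 1 dpi (0.25, or -0.06 with arrays scaled by their median). The fit within the shared slide equals that without Ctrl replicate 1, and both are counted. The count of receptor genes called was 0 in each comparison and became 1 at 1 dpi and 2 between 3 and 1 dpi after scaling to the array median, and 1 and 1 relative to the median of all genes. With no minimum fold change it was 5 at 1 dpi, 6 at 3 dpi and 8 between both times. Leaving out each array gave 0 to 1 between 3 and 1 dpi, with 1 without 1 dpi replicate 1. Genes called over the whole array numbered 4468 at 1 dpi, 2587 at 3 dpi and 2588 between both. With normexp they were 2799, 1292 and 1603, and with no minimum fold change 16443, 9416 and 13125. Between 3 and 1 dpi there were 4489 with no filter on dim probes and 3891 with every probe counted. Leaving out each array gave 3599 to 5378, 2363 to 2775 and 2269 to 2881. The cause of these shifts was not tested.

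Reversed values were these. Quantile normalization gave Tln1 -0.06 and Pf4 -0.34 at 1 dpi, and Pf4 0.26 between 3 and 1 dpi. Scaling to the array median gave Itgb1 -0.03 and Lat -0.00 at 1 dpi. The mean of the probes gave Adam10 0.18, Runx1 0.05 and Gp9 minus Gp1bb -0.03 at 1 dpi, Itgb1 -0.04 at 3 dpi, Adam10 -0.22 and Runx1 -0.17 between both times, and Itga2b minus Itgb3 0.08 at 3 dpi. The deposited values gave Itgb1 -0.59, Vwf -0.36, Adam10 0.66 and Pf4 -0.34 at 1 dpi, Itgb1 -1.07 and Itga2b minus Itgb3 0.36 at 3 dpi, and Adam10 -0.70 and Pf4 0.26 between both times.

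No pairing of arrays by replicate number was seen. Residuals of arrays with the same number correlated at -0.11 to 0.13, and those of arrays with unlike numbers at -0.15 to 0.10. With 3 arrays per group, such correlations cannot exclude a pairing. A fit with the replicate block gave 4273 genes called at 1 dpi and 0 receptor genes. The share of spots above background was lowest on Ctrl replicate 1 (69.1%).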
